A study of Mus musculus with 3 samples.

Results

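The genes described here are 10 engulfment receptors, bridging molecules and adaptors, by which a phagocyte recognises and takes up a dying cell: Axl, Mertk, Tyro3, Gas6, Pros1, Mfge8, Elmo1, Gulp1, Lrp1 and Megf10. They were listed by name, and all 11 of their probes were found on the arrays through the RefSeq accession of each probe, out of 20284 genes named in this way. Each member had 1 probe except Tyro3, which had 2. RNA came from whole livers of C57BL/6J mice (c57BL6/J in the labels) at 2 days after a hydrodynamic tail vein injection, and 1 one-colour Agilent array was hybridised for each of 3 groups. The groups expressed human YAP as the wild type, YAP (WT), or as one of the mutants YAP (1SA) and YAP (2SA), which the study used as active forms of this transcription coactivator. All groups therefore shared the injection, and no array of an uninjected liver is analysed here. The vector drove the transgene from an albumin promoter with an AFP enhancer, so expression was meant for hepatocytes, of which the method reaches a part. Because the transgene is the human gene, no mouse probe was taken as a check of the labels. The study mainly used young adult male mice, and whether an array held 1 animal or a pool was not stated.

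An apoptotic cell exposes phosphatidylserine, a lipid that healthy cells keep on the inner face of the plasma membrane. The soluble proteins Gas6 and Pros1 bind this lipid. Gas6 is a ligand of the receptor tyrosine kinases Tyro3, Axl and Mertk, and Pros1 is a ligand of Tyro3 and Mertk. Mfge8 binds the lipid and ties it to integrins. Lrp1 and Megf10 are large receptors for dying cells, Gulp1 is an adaptor that binds the tails of such receptors, and Elmo1 joins Dock1 to activate the GTPase Rac, which drives the actin of the engulfing cup. In liver this work is done mostly by Kupffer cells, the macrophages of the sinusoids. The study concerns the fate of hepatocytes that express active YAP, and the comparison here asked how the transcripts of this machinery stood on the 3 arrays.

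Levels are processed intensities divided by the 75th percentile of their own array, which was 291 for YAP (WT), 276 for YAP (1SA) and 319 for YAP (2SA). Differences are given on the log2 scale, so that a difference of 1 is 2-fold. With 1 array per group there was no replicate check, no test and no p-value. An effect of the YAP form cannot be told apart from variation among mice, or among RNA preparations, labellings and hybridisations. The only repeat measurement was that of probes spotted several times on an array. Their SD over spots, taken within quartiles of signal, gave a limit within which 95% of the differences between 2 arrays should fall if spot error alone were at work. For a probe with 1 spot, as all 11 of these were, the limit was 0.69 in the dimmest quartile, 0.30 and 0.20 in the middle ones and 0.17 in the brightest. It covers spot error within an array. It does not cover the spread between animals, or between RNA preparations, labellings and hybridisations. Among all 13626 genes measured on the 3 arrays, the SD of the differences was 0.34 for YAP (1SA) minus YAP (WT), 0.33 for YAP (2SA) minus YAP (WT) and 0.42 for YAP (2SA) minus YAP (1SA).

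Signal well above background was found for 8 of the 10 members on every array, and for Elmo1 and Megf10 on none. No member lay 2-fold or more apart between any pair of arrays. In YAP (1SA), 4 of the 8 measured members, Mfge8, Gas6, Axl and Mertk, were lower than in YAP (WT) beyond the spot limit and 0 were higher. The corresponding shares of all genes were 15.0% lower and 14.0% higher, and 1.86% of all genes lay past 2-fold in either direction. In YAP (2SA), Gas6 alone was higher than in YAP (WT) beyond the limit, while Pros1 and the brighter Tyro3 probe were lower. Over all genes these shares were 12.9% higher and 15.8% lower, with 1.67% past 2-fold. Between the mutants, Gas6, Mfge8 and Axl were higher in YAP (2SA) than in YAP (1SA) and Pros1 was lower, against 17.9% of all genes higher, 21.5% lower and 3.6% past 2-fold. The shares of all genes pool every signal quartile, and the limit is wider for dim genes. They are therefore not matched to the members by signal. The comparisons share arrays, so the same low YAP (1SA) values enter more than one of them.

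**Figure D1:**
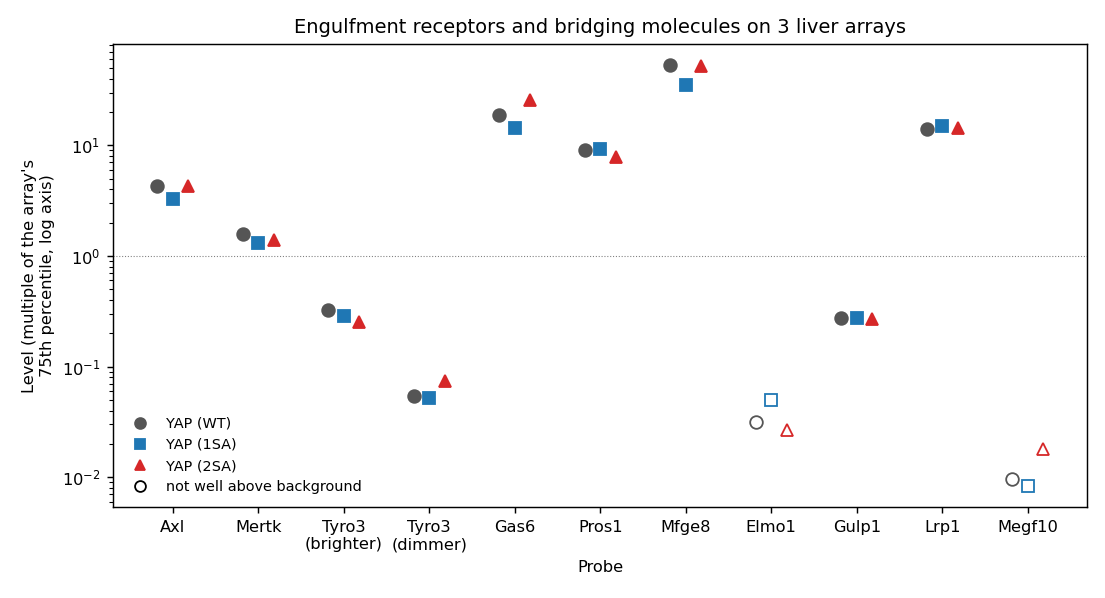
Level of each of the 11 probes on the 3 arrays, as a multiple of that array's 75th percentile on a log axis, with 1 point per array and open points for probes not well above background. Gas6, Mfge8, Axl and Mertk have their lowest point in YAP (1SA), and Elmo1 and Megf10 are open on every array. Heights of different probes cannot be set against each other, because probes differ in how they hybridise.

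The sequences that precede the start sites of Gas6, Mfge8 and Axl are shown because these 3 members had the widest ranges over the arrays, and because TEAD, the DNA-binding partner of YAP, has a known core motif. The 250 bases before each start were read from RefSeq promoters of GRCm38.p6, 5′ to 3′ on the minus strand, which is the gene's strand for all 3. Gas6 lies at chr8:13494536-13494785, Mfge8 at chr7:79149061-79149310 and Axl at chr7:25788734-25788983. Capitals mark the motif GGAATG, searched on both strands.
Gas6: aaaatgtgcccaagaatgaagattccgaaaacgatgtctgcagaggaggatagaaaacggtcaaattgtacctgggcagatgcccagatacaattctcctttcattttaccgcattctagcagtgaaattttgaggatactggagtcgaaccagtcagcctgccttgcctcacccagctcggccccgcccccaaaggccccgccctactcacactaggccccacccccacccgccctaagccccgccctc
Mfge8: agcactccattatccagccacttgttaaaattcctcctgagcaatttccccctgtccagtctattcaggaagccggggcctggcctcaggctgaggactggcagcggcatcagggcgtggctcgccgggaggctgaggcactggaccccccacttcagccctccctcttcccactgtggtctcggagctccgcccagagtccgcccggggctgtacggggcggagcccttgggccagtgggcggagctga
Axl: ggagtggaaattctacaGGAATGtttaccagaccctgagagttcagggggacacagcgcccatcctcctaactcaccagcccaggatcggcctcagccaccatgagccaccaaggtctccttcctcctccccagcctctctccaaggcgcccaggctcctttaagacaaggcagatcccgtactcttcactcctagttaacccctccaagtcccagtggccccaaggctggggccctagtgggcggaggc
The Axl sequence holds 1 match, which begins 233 bases before the start, and those of Gas6 and Mfge8 hold none of these letters in this window. Over the 10 windows listed for 9 members, the Axl window was the 1 with a match. Of 32851 promoter windows of this length, 12.6% hold the motif. A match describes the letters only, and nothing was measured at these sites.

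Of the bridging molecules, Gas6 and Mfge8 had the widest ranges over the arrays among the members, and Pros1 had a narrower range than any of the receptor kinases. Gas6 (NM_019521), the ligand of all 3 receptor kinases, had a level of 18.9 in YAP (WT), 14.4 in YAP (1SA) and 25.7 in YAP (2SA). Its order was YAP (2SA) above YAP (WT) above YAP (1SA), and Gas6 was the 1 member for which both neighbouring pairs in the order lay apart beyond the spot limit of 0.17. The difference from YAP (WT) was -0.39 in YAP (1SA), which is 23.8% lower, and 0.44 in YAP (2SA), which is 36.0% higher. Of the 4353 genes in the brightest quartile, 92.1% differed less in YAP (1SA) and 95.4% differed less in YAP (2SA), regardless of sign. Between the mutants Gas6 differed 1.78-fold, or 0.84 on the log2 scale, and 97.4% of those genes differed less, and this was the largest of all differences among the members.

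Mfge8 (NM_008594), which links phosphatidylserine to integrins, had a level of 53.2 in YAP (WT), 35.2 in YAP (1SA) and 51.8 in YAP (2SA). The YAP (1SA) array stood below both others, which lay within the spot limit of each other at -0.04. Mfge8 was 0.59 lower in YAP (1SA) than in YAP (WT) on the log2 scale (-0.59), or 33.8% lower, and no other member differed more from YAP (WT). In the brightest quartile 96.3% of genes differed less. Against YAP (1SA), Mfge8 was 1.47-fold higher in YAP (2SA), a log2 difference of 0.56.

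Pros1 (NM_011173), the plasma anticoagulant protein S, had another order. Its level was 9.16 in YAP (WT), 9.17 in YAP (1SA) and 7.79 in YAP (2SA). The first 2 were equal to within 0.001 on the log2 scale, and YAP (2SA) was the lowest, at -0.23 from YAP (WT), or 15.0% lower. Of the genes in the brightest quartile, 84.0% differed less than this. Thus Gas6 and Pros1 stood on opposite sides of YAP (WT) in YAP (2SA). Under the series matrix scaling the difference of Pros1 between the mutants moved from -0.23 to -0.16, inside the spot limit.

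The receptor kinases had narrower ranges than Gas6 and Mfge8. Axl (NM_009465), a receptor that binds Gas6 with high affinity and is found on activated macrophages and stellate cells, had a level of 4.25 in YAP (WT), 3.27 in YAP (1SA) and 4.31 in YAP (2SA). YAP (1SA) again stood below both others, and YAP (WT) and YAP (2SA) differed by 0.02. The difference of Axl from YAP (WT) in YAP (1SA) was -0.38, or 23.0% lower, beyond the spot limit of 0.20, and 87.7% of the 4222 genes in its signal quartile differed less. Between the mutants Axl differed by 0.40, and 82.2% of those genes differed less.

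Mertk (NM_008587), the receptor on which resident macrophages mainly rely for the uptake of apoptotic cells, had a level of 1.56 in YAP (WT), 1.30 in YAP (1SA) and 1.40 in YAP (2SA). YAP (WT) was the highest array. Neither neighbouring pair in this order lay apart beyond the spot limit of 0.20, while the outer pair did, at -0.26 for YAP (1SA) minus YAP (WT). That is 16.7% lower, and 79.4% of genes of like signal differed less. The difference of YAP (2SA) from YAP (WT) was -0.16, within the limit.

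Tyro3 (NM_019392), best known from the nervous system, was dim. Its brighter probe had a level of 0.32 in YAP (WT), 0.29 in YAP (1SA) and 0.25 in YAP (2SA). It was lower in YAP (2SA) than in YAP (WT) by -0.37, beyond a limit of 0.30, and 78.2% of genes of like signal differed less. The dimmer probe had a level of 0.05 in YAP (WT), 0.05 in YAP (1SA) and 0.07 in YAP (2SA), and its difference in YAP (2SA) was 0.46, the opposite sign, within its limit of 0.69. The probes therefore disagreed, and the mean of both gave 0.045, so no direction can be given for Tyro3 in YAP (2SA). In YAP (1SA) both probes lay within their limits, at -0.17 and -0.07.

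**Figure D2:**
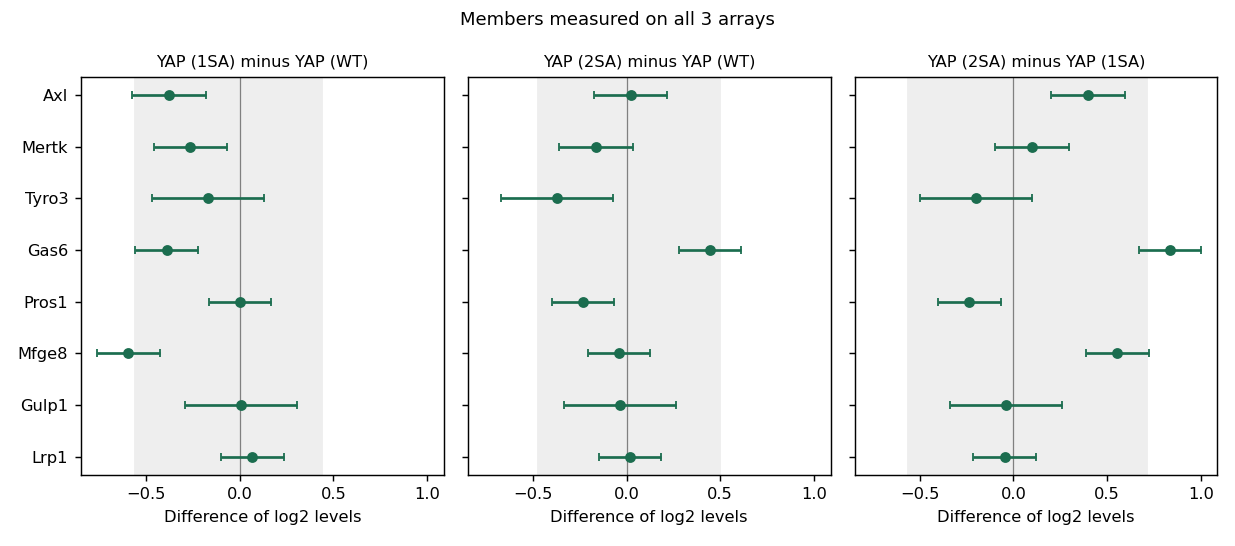
Differences of log2 levels for the 8 measured members in the 3 comparisons, each with a bar of plus and minus the spot limit, over a grey band that spans the central 90% of all 13626 genes. Mfge8 at -0.59 in YAP (1SA) minus YAP (WT) and Gas6 at 0.84 in YAP (2SA) minus YAP (1SA) lie outside the band, and bars of Gulp1 and Lrp1 cross 0 in every panel.

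Outside the kinase family, Lrp1 and Gulp1 were measured, and each lay within the spot limit between every pair of arrays. Lrp1 (NM_008512), an endocytic receptor abundant in hepatocytes that also binds calreticulin on dying cells, had a level of 14.2 in YAP (WT), 14.8 in YAP (1SA) and 14.3 in YAP (2SA). The widest gap between its arrays was 0.07, within the limit of 0.17. Gulp1 (NM_028450) had a level of 0.28 in YAP (WT), 0.28 in YAP (1SA) and 0.27 in YAP (2SA), with a widest gap of 0.04 and a limit of 0.30. Because the limit bounds spot error alone, a real difference between animals of this size cannot be judged.

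Elmo1 (NM_080288) had an intensity of 9.11 in YAP (WT), 13.8 in YAP (1SA) and 8.46 in YAP (2SA), and Megf10 (NM_001001979) of 2.78, 2.28 and 5.77. Neither probe was well above background on any array, so no difference is given for them. A probe near background in whole liver RNA sets no limit on the transcript in single cells.

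Across the 8 measured members the median difference was -0.22 for YAP (1SA) minus YAP (WT), -0.04 for YAP (2SA) minus YAP (WT) and 0.03 for YAP (2SA) minus YAP (1SA). The medians over all genes were -0.002, -0.03 and -0.03. The first median held 5 lower and 3 higher members, and the 3 higher ones, Lrp1, Gulp1 and Pros1, all lay within the spot limit. This split depended on the scaling: it was 7 lower and 1 higher with the series matrix values or the 75th percentile over probes well above background, and 6 and 2 with quantile normalisation or normexp. Of the 8 members, 4 had their lowest level in YAP (1SA) and 2 their highest in YAP (2SA). Among all genes these shares were 34.4% and 31.3%.

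The other genes of the engulfment pathway were taken from 6 lists by role, 64 genes in all, of which 55 were measured on all 3 arrays. The others were 1 gene measured on part of the arrays, 6 not well above background and 2 without a named probe. Of the 55, 20 were lower and 6 higher in YAP (1SA) than in YAP (WT) beyond the spot limit, with 3 and 2 past 2-fold. These are 36.4% and 10.9% of the 55, against 15.0% and 14.0% of all genes, and their median difference was -0.07. In YAP (2SA), 11 were lower and 9 higher than in YAP (WT), with 1 past 2-fold in each direction and a median of 0.01. At 20.0% and 16.4% these shares lay near the 15.8% and 12.9% of all genes. In YAP (2SA) against YAP (1SA), 23 were higher and 14 lower, with 4 and 1 past 2-fold and a median of 0.05. The shares were 41.8% and 25.5%, against 17.9% and 21.5% of all genes. With normexp, a model-based background correction with an added offset of 50, the 3 lower genes past 2-fold in YAP (1SA) became 1, and the higher ones became 0 in both YAP (2SA) comparisons. The lists include 6 genes that are also markers of Kupffer cells, of which 5 were measured.

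Among receptors for phosphatidylserine and scavenger receptors, 8 of 14 measured genes were lower in YAP (1SA) than in YAP (WT) beyond the limit and 0 higher. That is 57.1% lower, against 15.0% lower and 14.0% higher of all genes, and the median was -0.22. In YAP (2SA) 5 were lower and 3 higher, with a median of -0.02. These are 35.7% and 21.4%, against 15.8% and 12.9% of all genes. Marco, a scavenger receptor of resident macrophages, had a level of 52.5 in YAP (WT), 22.7 in YAP (1SA) and 17.4 in YAP (2SA). It was lower than in YAP (WT) in both mutants, by -1.21 and -1.59. Havcr2, which encodes the phosphatidylserine receptor Tim-3, was dim, with 0.11, 0.05 and 0.13 on the same arrays, and differed by -1.27 in YAP (1SA) and 0.21 in YAP (2SA). Its YAP (2SA) level was 1.48 above that of YAP (1SA), the highest difference in the lists between the mutants, but with normexp it was 0.26, and the difference in YAP (1SA) was -0.18. The brightest probe of Cd300lf, another receptor for this lipid, was 1.08 higher in YAP (2SA) than in YAP (1SA), but its 3 measured probes ranged from 0.18 to 1.08 in that comparison (0.99 with normexp for the brightest), and from -0.71 to 0.15 in YAP (1SA) minus YAP (WT). Timd4, the Kupffer cell receptor Tim-4, was lower than in YAP (WT) by -0.36 in YAP (1SA) and -0.97 in YAP (2SA).

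Among opsonins and bridging molecules, 6 of 10 measured genes were lower in YAP (1SA) than in YAP (WT) beyond the limit and 2 higher. The shares of all genes were 15.0% and 14.0%, and the median of the list was -0.30. In YAP (2SA) 4 were higher and 3 lower, against 12.9% and 15.8% of all genes, with a median of 0.12. C1qa, C1qb and C1qc, the chains of complement C1q that coat dying cells, were lower in YAP (1SA) by -0.52, -0.53 and -0.58, and lay at 0.16, 0.04 and -0.15 in YAP (2SA). Thbs1, a matrix protein that bridges to Cd36, was dim and differed by -1.13 in YAP (1SA) and 0.07 in YAP (2SA). It was 1.20 higher in YAP (2SA) than in YAP (1SA). With normexp these differences were -0.25, -0.04 and 0.21.

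The intracellular machinery carries the signal from the receptors to Rac. Of its 12 measured genes, 1 was lower and 1 higher in YAP (1SA) beyond the limit, and 0 lower and 1 higher in YAP (2SA). At 8.3% each in YAP (1SA), these lay below the 15.0% and 14.0% of all genes. In YAP (2SA) the shares of all genes were 15.8% lower and 12.9% higher. Between the mutants, 6 of the 12 were higher in YAP (2SA) than in YAP (1SA) beyond the limit and 1 was lower. These are 50% and 8.3%, against 17.9% and 21.5% of all genes. Dock1, the partner of Elmo1, differed from YAP (WT) by -0.04 and 0.01, and Rac1 by -0.07 and 0.12. Vav3, a dim exchange factor, had a level of 0.13 in YAP (WT), 0.09 in YAP (1SA) and 0.20 in YAP (2SA). It was 1.19 higher in YAP (2SA) than in YAP (1SA), beyond its limit of 0.69, and 0.39 higher with normexp.

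Among 6 genes for shedding and restraint, Socs3, a suppressor of cytokine signalling that the receptor kinases can induce in phagocytes, had a level of 2.77 in YAP (WT), 5.96 in YAP (1SA) and 2.22 in YAP (2SA). It was 1.11 above YAP (WT) in YAP (1SA), and at -1.42 it had the lowest difference in the lists for YAP (2SA) minus YAP (1SA). Adam10 and Adam17, proteases of the family that sheds Axl and Mertk, differed from YAP (WT) by 0.18 or less in both mutants, within their limits. Cd47, the signal by which cells ward off uptake, and its receptor Sirpa were lower in YAP (1SA) by -0.46 and -0.52. In YAP (2SA) they lay at -0.03 and 0.09. The 7 genes of lipid transport and nuclear receptors had medians of 0.04 and -0.06 against YAP (WT), and the 6 genes for exposure of phosphatidylserine -0.07 and -0.03. No gene on these lists lay past 2-fold.

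**Figure D3:**
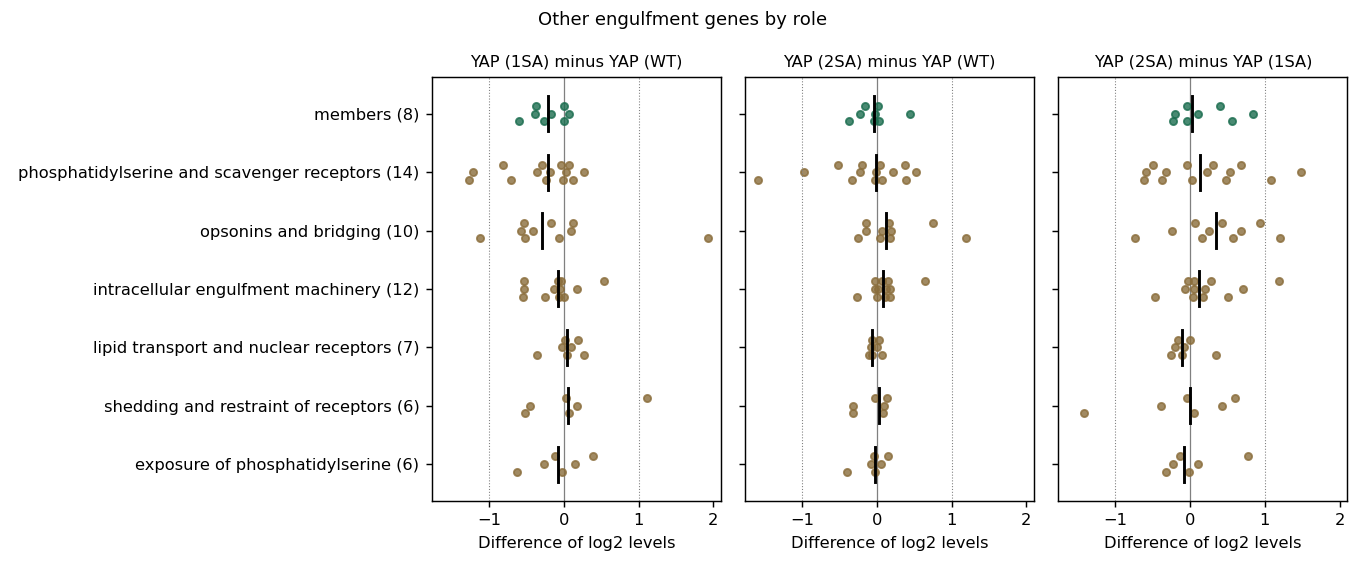
Differences of log2 levels for the members and for the other engulfment genes by role, 1 point per measured gene, with the number of genes in brackets, the median as a black bar and 2-fold as dotted lines. In YAP (1SA) minus YAP (WT) the medians of the members, the phosphatidylserine and scavenger receptors and the opsonins lie at -0.22, -0.22 and -0.30.

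Most members are expressed by macrophages, endothelial or stellate cells as well as hepatocytes, so marker lists of these cells were read on the same arrays. In whole liver, fewer cells of a type and less RNA per cell cannot be told apart. Of 10 measured Kupffer cell markers, 7 were lower in YAP (1SA) than in YAP (WT) beyond the limit and 1 was higher. In YAP (2SA) 6 were lower. The shares of all genes were 15.0% lower and 14.0% higher in YAP (1SA), and 15.8% lower in YAP (2SA). The 7 included Marco, Timd4, C1qa, C1qb and C1qc, already counted in the engulfment lists, and the 6 included Marco, Timd4 and C1qc. With these shared genes, the levels of the 10 markers summed to 293 in YAP (WT), 218 in YAP (1SA) and 192 in YAP (2SA). Such a sum is led by its brightest probes. The defining markers did not move as one in YAP (1SA). In YAP (2SA) the brightest probe of each lay below YAP (WT), for Adgre1 (F4/80) within the limit. Clec4f was at 0.45 in YAP (1SA) and -1.56 in YAP (2SA), and Vsig4 at 0.07 and -0.90. Timd4 was at -0.36 and -0.97, and Adgre1 at -0.49 and -0.16. The 2 measured probes of Adgre1 ranged from -0.49 to -0.38 in YAP (1SA) and from -0.16 to 0.14 in YAP (2SA). Markers of recruited monocytes and macrophages, 6 measured of 7, had medians of -0.96 in YAP (1SA) and -0.03 in YAP (2SA), with sums of 87.0, 46.5 and 91.0. They held Gpnmb at -1.20 and Lgals3 at -1.11 in YAP (1SA), whereas the defining marker Ccr2 was at 2.33 and 0.85, and Ly6c2 had no named probe. The YAP (1SA) array, on which Gas6, Mfge8 and Axl were lowest, thus had Adgre1, Gpnmb, Lgals3 and C1q below YAP (WT), but Clec4f and Ccr2 above it and Vsig4 within the limit of it. Their part in the levels of the members was not tested.

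Stellate cell markers, 6 measured of 7, had medians of 0.02 in YAP (1SA) and -0.53 in YAP (2SA). All 6 were lower than in YAP (WT) in YAP (2SA). Beyond the limit were 5, or 83.3%, against 15.8% of all genes. The levels of the 6 summed to 31.3, 30.4 and 21.5. Of their defining markers, Lrat was at 0.26 and -0.60, and Reln was not measured on all arrays. Reln was dim and well above background in YAP (1SA) alone, so it gave only bounds, as defined below. The bound was 3.40-fold lower in YAP (2SA) than in YAP (1SA), beyond the limit of 0.69 on the log2 scale. It was 1.58-fold higher in YAP (1SA) than in YAP (WT), within that limit. Gas6 was highest in YAP (2SA), where the sums of the stellate, Kupffer, sinusoidal endothelial and hepatocyte markers were lowest. The sums of recruited monocyte and macrophage, dendritic cell and neutrophil markers, and the level of Pf4, were highest on that array. The sum of bile duct markers lay between those of the other arrays there. The order of the sums is led by the brightest probes and need not be that of most markers. Against YAP (1SA), 5 of 10 Kupffer markers were lower in YAP (2SA) and 5 higher. Of 7 sinusoidal endothelial markers, 4 were lower and 3 higher. All 6 stellate markers were lower, as were 6 of 7 hepatocyte markers, against 54.4% of all genes. Sinusoidal endothelial markers, all 7 measured, had medians of -0.05 and -0.12 with sums of 78.3, 83.3 and 64.8. Their defining markers Stab2 and Lyve1 were at 0.12 and -0.17 in YAP (1SA), and at -0.21 and 0.37 in YAP (2SA). Hepatocyte markers, all 7 measured, had medians of 0.10 and -0.12, and the defining markers Alb and Ttr were well above background on every array, with differences of 0.10 and 0.09 in YAP (1SA) and -0.29 and -0.09 in YAP (2SA). Bile duct markers, all 5 measured, had medians of -0.82 and -0.06 with sums of 13.1, 4.30 and 10.8. Without Spp1, which the list of recruited macrophages also holds, the sums were 0.99, 0.64 and 1.02 and the medians -0.78 and 0.01. Their defining markers Krt19 and Epcam were at -0.82 and -0.90 in YAP (1SA). Dendritic cell markers, 4 measured of 5, had medians of -0.16 and 0.15. Of their defining markers, Flt3 was at -0.12 and 0.16 and Xcr1 was not well above background on any array. Of the neutrophil markers S100a8 and S100a9 were measured, at 0.23 and -0.11 in YAP (1SA) and at 0.44 and 0.13 in YAP (2SA). Pf4, the 1 platelet marker of 3 measured on all arrays, was at -0.47 in YAP (1SA) and 0.96 in YAP (2SA). The other platelet markers were dim and gave only bounds. For Itga2b the bound was 1.5-fold higher in YAP (1SA) than in YAP (WT). For Gp9 it was 1.56-fold lower in YAP (1SA) and 1.59-fold lower in YAP (2SA). On the log2 scale each of these platelet bounds lay within the limit of 0.69 for the dimmest quartile, so no difference is given. A bound sets the array on which the probe was well above background against the larger of its own signal and the lowest signal well above background on the other array. The part of these cells in the levels of the members was not tested.

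**Figure D4:**
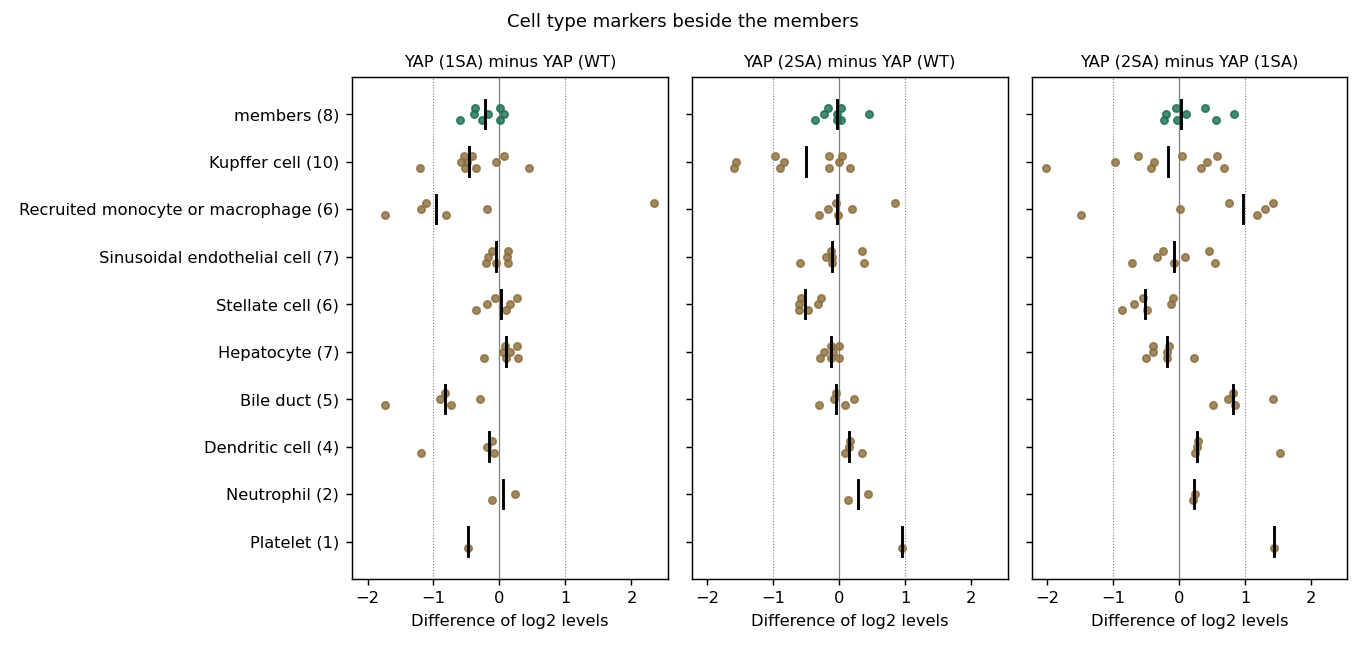
Differences of log2 levels for the 8 measured members and for markers of 9 cell types, drawn as points with a black median bar, the number of measured genes in brackets and dotted lines at 2-fold. Medians in YAP (1SA) minus YAP (WT) are -0.22 for the members, -0.46 for Kupffer cells and -0.96 for recruited monocytes and macrophages, while in YAP (2SA) minus YAP (WT) they are -0.04, -0.50 and -0.03.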

How the data were processed

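Liver RNA was analysed on 3 arrays, 1 per group. The authors scanned SurePrint G3 Mouse arrays and processed them with Agilent Feature Extraction 10.10.1.1, per the file headers, with probes placed on mm9. The deposited intensity is background-subtracted and detrended within the array, and not scaled between arrays. The series matrix holds the deposited intensity times 1 constant per array of unstated source (3.02 for YAP (WT), 3.08 for YAP (1SA) and 2.81 for YAP (2SA)), and served as an alternative.

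Spots that were non-uniform or population outliers were left out (148 to 182 of 59305 non-control spots per array, and none of the members), and saturation marked no spot. Each probe's level was the mean of its spots on the log2 scale, less the 75th percentile of that array on the same scale. A probe counted as measured when at least 50% of its spots were marked well above background, which held for 28972 to 30784 of 55681 probes. RefSeq accessions without version named 26762 probes through a gene table of GRCm38.p6, which was used for names. The brightest probe measured on all 3 arrays stood for a gene. The spot SD was the root mean square over 282 probes with at least 5 spots. All arrays lay on 1 slide. Precision is limited by the number of arrays.

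The members and lists were chosen with earlier results of these data known. Named genes were all members, the listed engulfment genes past 2-fold or at either extreme in a comparison, and defining markers. The values of 1 listed gene are not reported here, though it enters the counts and medians of its list. Other listed genes were named after their values were seen: C1qa, C1qb, C1qc, Dock1, Rac1, Adam10, Adam17, Cd47, Sirpa, Gpnmb, Lgals3, Spp1, Itga2b and Gp9. The motif, the promoters to print and the marker sums without Spp1 were also chosen then. Alternatives were 3 other scalings, normexp with an offset of 50, the series matrix, flagged spots kept, no filter and a stricter filter on dim probes, the mean of a gene's probes, and thresholds of 1.5-fold and 3-fold. The calculation of differences was tested on simulated data. Tools were Python 3.11.15, pandas 2.3.3, numpy 2.4.6, matplotlib 3.10.9, R 4.3.3 and limma 3.58.1 for normexp.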

Additional observations from a re-analysis of the deposited data

Results flagged for a closer look

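Gas6 was lower than in YAP (WT) in YAP (1SA), by -0.39 on the log2 scale, and higher in YAP (2SA), by 0.44, so the mutants lay on opposite sides of the wild type, each beyond the spot limit of 0.17. It was the 1 member with such opposite differences. The difference between the mutants was not tested, because each group held 1 array. Over all the alternatives the value ranged from -0.44 to -0.36 in YAP (1SA) and from 0.44 to 0.49 in YAP (2SA).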

How the results depend on the processing

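No paired analysis was possible because the 3 groups had a single array apiece, and for the same reason none could be left out. Scalings moved the median of all genes by at most 0.08 on the log2 scale. For the members, the stricter filter, which kept 6 of 8, gave a median of -0.32 for YAP (1SA) minus YAP (WT) and 0.25 for YAP (2SA) minus YAP (1SA), and the mean of all measured probes gave 0.13 for the latter. With that mean Tyro3 turned to 0.045 in YAP (2SA) minus YAP (WT). At 1.5-fold, 1 member was lower in YAP (1SA) minus YAP (WT) and 1 higher in YAP (2SA) minus YAP (1SA), and with no filter 1 was higher in the latter, Megf10, which was not well above background. For the 55 other engulfment genes, the counts past 2-fold moved as follows. For YAP (1SA) minus YAP (WT), 1 was higher and 0 lower at 3-fold, 6 were lower at 1.5-fold, and 1 was lower with normexp and 1 with the stricter filter. For YAP (2SA) minus YAP (WT), 3 were higher and 2 lower at 1.5-fold, 0 were higher at 3-fold or with normexp, and 4 with no filter. For YAP (2SA) minus YAP (1SA), 10 were higher and 4 lower at 1.5-fold, 0 and 0 at 3-fold, 7 higher with no filter, 0 with normexp and 1 with the stricter filter. Fewer or more genes enter with another filter or threshold by construction, and the cause under normexp was not tested.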
